A study of Mus musculus with 37 samples.

Results

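The genes described here are 39 genes that mark T and B lymphocytes, 23 of T cells and 16 of B cells, followed in mouse mammary tissue after irradiation. A gene was taken as measured where a probe set of the array was annotated with its symbol alone, and the probe set with the highest mean over all arrays would have stood for a gene with several. By this rule 37 of the 39 genes were measured, 21 T genes and 16 B genes, of 18820 genes with such a probe set, and each of the 37 had 1 probe set. Lck and Tcf7 were not analysed here. T and B genes were summarised apart, per array and in each group.

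Total RNA of the mammary gland was measured in female BALB/c mice, 1 array per sample and 37 arrays in all, and values are on a log2 scale, on which a difference of 1 is a doubling. The mice (BALB/cJ) were bought at 3 weeks of age, lost the inguinal mammary gland of one side while the opposite gland stayed intact, travelled to the irradiation site at 9 weeks and were exposed, or handled as sham, when 10 weeks old. Exposure was to 100 cGy of gamma rays, a sparsely ionizing radiation, or to silicon ions (Si) at 350 MeV/amu, a densely ionizing one, at 30 or 10 cGy. The intact gland was taken 1, 4 or 12 weeks later, and the mice of weeks 4 and 12 had first travelled back, so the place of collection differs between week 1 and the later weeks. Each of the 12 groups had 3 arrays, except sham at week 4 with 4. The labels only number the replicates, and where they did not come from separate mice a p-value would cover technical spread alone.

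T cells recognise antigen through a receptor whose signal passes through the CD3 chains, and B cells through surface immunoglobulin, whose signal passes through CD79A and CD79B. Both kinds of cell are scattered in low numbers through mammary tissue, while the inguinal fat pad of the mouse also encloses a lymph node, in which T and B cells are packed in separate zones, held by stromal cells that make chemokines and by the high endothelial venules through which lymphocytes enter. In bulk tissue, fewer cells of a type and less RNA per cell cannot be told apart.

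The promoter sequences of genes that moved together are shown first. RefSeq windows (GRCm38.p6) of 250 bases before to 50 bases after a gene's start were matched by symbol for 26 members, 14 T and 12 B. Ets factors, a family active in both lymphocyte lineages, bind around a GGAA core, and the pattern ACAGGAAG, on either strand, lay in the windows of 3 of 14 T genes (Cd3e, Il7r and Lat) and 2 of 12 B genes (Blnk and Cd79a), against 3.45% of 27025 windows. Below, sequences run 5′ to 3′ on the gene's strand, and capitals mark a match, which in Cd3e and Il7r reads CTTCCTGT because it lies on the other strand. The T genes are shown as 30 bases around it, because a longer gene model covers that stretch, and the B genes as the 250 bases before the start.
Cd3e (chr9:45009610-45009639, minus strand): tcccctctacaCTTCCTGTgtggggttcag
Il7r (chr15:9529906-9529935, minus strand): ttttgctcagaCTTCCTGTttctggcactt
Cd79a (chr7:24897247-24897496, plus strand): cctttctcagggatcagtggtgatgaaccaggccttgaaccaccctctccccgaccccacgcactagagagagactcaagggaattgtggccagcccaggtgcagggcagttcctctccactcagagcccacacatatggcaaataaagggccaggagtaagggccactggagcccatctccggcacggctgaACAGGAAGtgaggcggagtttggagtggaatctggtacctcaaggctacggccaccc
Blnk (chr19:40994222-40994471, minus strand): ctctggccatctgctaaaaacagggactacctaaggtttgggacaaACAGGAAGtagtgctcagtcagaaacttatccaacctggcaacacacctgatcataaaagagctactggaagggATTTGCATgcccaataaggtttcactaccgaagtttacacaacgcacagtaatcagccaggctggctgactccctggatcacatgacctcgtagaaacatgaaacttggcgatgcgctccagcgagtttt

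The match began 17 bases before the start of Cd3e, 48 before that of Il7r, 57 before that of Cd79a and 204 before that of Blnk. Blnk also held, 130 bases before its start, the octamer ATTTGCAT, the site of the Oct factors that pair with the B cell cofactor encoded by Pou2af1. The octamer lay in 2 of 12 B windows (Blnk and Ccr6), 0 of 14 T windows and 1.75% of all windows. In all, 15 patterns were searched on both strands, and those marked were picked after their matches were seen. The others were the EBF1 palindrome, a TCF/LEF pattern ending in A (CTTTGAA), its forms ending in T (CTTTGAT) and in TT (CTTTGTT), the Ets patterns CAGGAAGT (which shares bases with ACAGGAAG) and CCGGAAGT, the PU.1 and Spi-B pattern GAGGAAGT, the E-boxes CAGCTG and also CACCTG, the Runx pattern TGTGGTT, an NF-kB pattern (GGGNNTTCC), a GATA pattern (TGATAA) and the TATA box (TATAAA). The E-box CACCTG lay in 8 of 14 T and 6 of 12 B windows, against 20.0% of all. CTTTGTT, CCGGAAGT and TGATAA lay in 0 of the 26 member windows, and in 5.79%, 4.0% and 9.26% of all windows. A match is a description of letters, and no binding was measured.

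All 37 members passed the filter on low values, a mean above the 30th percentile (log2 4.04), which left 13174 genes tested. Ctla4 (mean 4.06), Cd3d (4.09), Zap70 (4.12) and Ccr6 (4.13) lay closest above it. Each also had arrays below it, with lowest values of 3.14, 3.06, 3.04 and 3.02 in that order. Correlations between arrays over all probe sets ran from 0.948 to 0.987 with a median of 0.978, and sham week 4 replicate 1 (median 0.964) and sham week 1 replicate 3 (0.969) stood furthest from the others. Both are sham arrays, so some results against sham are also given without one or both. The first had low lymphocyte values that were mostly not the lowest of the series, and the second had the highest value of every B gene. Of markers of the gland itself, 7 epithelial genes averaged between 7.81 and 9.30 over the arrays and 6 adipocyte genes between 10.6 and 11.4, while 6 skeletal muscle genes ranged from 4.41 to 10.8.

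The members differed widely between arrays of the same group. Cd3e, the epsilon chain of the T cell receptor complex, is given first. In sham glands its log2 level was 7.95, 5.99 and 9.98 at week 1, 4.42, 9.19, 5.39 and 8.97 at week 4, and 4.86, 7.51 and 7.98 at week 12. After 100 cGy gamma it was 8.15, 6.65 and 5.99 at week 1, 8.68, 7.61 and 10.23 at week 4, and 8.0, 5.93 and 5.33 at week 12. Sham arrays held both the lowest value of the series and one close to the highest, and every week of gamma overlapped the sham arrays of that week. After 30 cGy Si, Cd3e was 5.19, 6.22 and 5.37 at week 1, 5.10, 5.35 and 8.09 at week 4, and 6.28, 5.60 and 5.85 at week 12. After 10 cGy Si it was 9.52, 6.19 and 8.83 at week 1, 5.18, 8.34 and 5.85 at week 4, and 5.90, 7.93 and 5.99 at week 12. Of the 9 arrays of 30 cGy Si, week 4 replicate 3 stood alone at 8.09 with the next at 6.28, and at every week both doses of Si overlapped sham.

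Cd3g, the CD3 gamma chain, had the largest range of any T gene, 6.07 on the log2 scale. Its sham levels were 7.20, 5.17 and 9.38 at week 1, 4.87, 8.99, 5.19 and 9.28 at week 4, and 4.24, 7.62 and 7.94 at week 12. Levels after gamma were 7.30, 5.76 and 5.25 at week 1, 8.61, 7.21 and 9.88 at week 4, and 7.76, 4.98 and 5.05 at week 12. The highest single value belonged to gamma week 4 replicate 3, which was also the highest array for Cd3d, Cd3e and Cd247. Levels of Cd3g after 30 cGy Si were 4.25, 5.74 and 4.75 at week 1, 3.81, 4.53 and 8.08 at week 4, and 6.30, 4.70 and 5.12 at week 12. Those after 10 cGy Si were 9.13, 5.23 and 8.14 at week 1, 4.84, 8.36 and 4.93 at week 4, and 5.82, 8.16 and 5.72 at week 12. Again 1 of 9 arrays of 30 cGy Si stood high, and every irradiated group overlapped its sham group. Cd3d and Cd247, the delta and zeta chains, ranged over 3.32 and 3.04.

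The coreceptors, which bind the MHC molecule beside the receptor, followed the same arrays. Cd8a was 5.99, 4.78 and 7.89 at week 1, 4.81, 7.08, 4.78 and 7.64 at week 4, and 4.58, 5.97 and 6.02 at week 12 in sham glands. It was 5.87, 5.0 and 4.84 at week 1, 6.58, 5.33 and 7.84 at week 4, and 6.01, 4.73 and 4.81 at week 12 after gamma. Sham and gamma arrays each covered the low and the high end, and they overlapped at each week. Cd8a after 30 cGy Si was 4.52, 4.69 and 5.14 at week 1, 4.38, 4.89 and 6.59 at week 4, and 5.06, 4.94 and 4.60 at week 12. Its levels after 10 cGy Si were 7.40, 5.40 and 6.71 at week 1, 4.96, 6.62 and 5.18 at week 4, and 5.28, 6.23 and 4.91 at week 12. Of the 30 cGy Si arrays, week 4 replicate 3 stood at 6.59 with the next at 5.14, and both Si doses overlapped sham at each week. Cd4 ranged over 4.37 and Cd8b1, the CD8 beta chain, over 4.24.

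Signalling, adhesion and costimulation genes came next. Zap70, the kinase that docks on CD3 and zeta chains, ranged over 2.87 and Lat, the adaptor it phosphorylates, over 3.57. Of the 7 surface adhesion and costimulation genes, Cd28, the main costimulatory receptor, had the largest range (4.40) and Ctla4, the inhibitory receptor for the same ligands, the smallest (2.15). Cd2, Cd5, Cd6, Cd27 and Icos lay between, from 2.67 for Cd6 to 4.11 for Cd2. Ctla4 followed the other T genes least, with a Pearson r of 0.79 over 37 arrays, while Cd5, a receptor that dampens antigen receptor signals, followed them most closely (r = 0.984). Icos and Ctla4 followed the mean of the B genes (r = 0.93 and 0.84) more closely than the other T genes (0.90 and 0.79). Lef1, a transcription factor of naive T cells, ranged over 5.06. These correlations share arrays and normalization and are descriptions without a p.

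Ccr7, the receptor that brings naive lymphocytes into the lymph node, had sham levels of 7.52, 5.75 and 9.38 at week 1, 5.36, 8.36, 5.25 and 8.66 at week 4, and 4.98, 7.16 and 7.0 at week 12. Gamma levels were 7.46, 5.80 and 6.14 at week 1, 7.99, 6.94 and 9.16 at week 4, and 7.40, 5.49 and 5.16 at week 12. Its values in the 3 gamma arrays of week 4 all exceeded both lower sham arrays of that week and straddled both upper ones. After 30 cGy Si, Ccr7 was 5.80, 5.65 and 5.90 at week 1, 5.08, 5.09 and 7.31 at week 4, and 6.22, 5.31 and 5.36 at week 12. After 10 cGy Si, Ccr7 was 9.20, 5.73 and 8.02 at week 1, 5.09, 7.92 and 5.01 at week 4, and 6.04, 7.49 and 5.49 at week 12. All irradiated groups overlapped sham, and 30 cGy Si again had 1 high array.

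Il7r, the interleukin 7 receptor on which naive and memory T cells depend, was 7.26, 5.91 and 9.34 at week 1, 5.58, 9.23, 5.92 and 9.33 at week 4, and 4.94, 7.77 and 7.99 at week 12 in sham glands. In gamma glands it was 8.38, 6.44 and 6.04 at week 1, 8.28, 8.10 and 10.39 at week 4, and 7.54, 5.44 and 5.38 at week 12. Gamma week 4 replicate 3 held the highest Il7r value of the 37 arrays and sham week 12 replicate 1 the lowest. Glands given 30 cGy Si had Il7r at 5.12, 6.13 and 6.63 at week 1, 5.15, 5.58 and 8.16 at week 4, and 5.86, 5.86 and 5.21 at week 12. Glands given 10 cGy Si had it at 9.19, 5.91 and 8.58 at week 1, 5.53, 8.67 and 5.50 at week 4, and 5.87, 8.80 and 6.15 at week 12. Each irradiated group overlapped its sham group. The median r with the other T genes was 0.97. Of the cytotoxic granule genes, Nkg7 had an r of 0.91 and Prf1, perforin, an r of 0.85, and their ranges were 3.30 and 2.25.

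Among B genes, the receptor's signalling chain gene Cd79a had the largest range of all members, 7.96 on the log2 scale. Sham levels of Cd79a were 7.45, 5.39 and 9.93 at week 1, 3.81, 8.75, 4.77 and 9.17 at week 4, and 1.97, 7.29 and 7.68 at week 12. Gamma levels of Cd79a were 6.95, 5.37 and 7.91 at week 1, 9.0, 6.53 and 8.35 at week 4, and 8.13, 3.90 and 3.87 at week 12. Both the lowest and the highest array of the series were sham arrays, week 12 replicate 1 and week 1 replicate 3. Levels of Cd79a after 30 cGy Si were 2.89, 6.09 and 5.69 at week 1, 3.75, 3.45 and 8.05 at week 4, and 5.54, 4.30 and 5.28 at week 12. Levels of Cd79a after 10 cGy Si were 9.38, 5.18 and 8.98 at week 1, 4.40, 8.41 and 5.29 at week 4, and 5.04, 7.34 and 4.04 at week 12. Irradiated and sham arrays overlapped at each week.

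Its partner Cd79b was 8.06, 6.44 and 10.52 at week 1, 4.65, 9.20, 5.57 and 9.88 at week 4, and 4.82, 7.85 and 8.39 at week 12 in sham glands. With gamma it was 7.31, 6.12 and 8.51 at week 1, 9.40, 7.39 and 9.0 at week 4, and 8.56, 5.26 and 5.52 at week 12. At week 1 the gamma array with the lowest Cd3e, replicate 3, had the highest Cd79b of its group. With 30 cGy Si, Cd79b was 4.77, 6.51 and 6.17 at week 1, 5.56, 5.33 and 8.92 at week 4, and 6.85, 4.85 and 5.68 at week 12. With 10 cGy Si, Cd79b was 9.80, 6.04 and 9.23 at week 1, 5.22, 9.02 and 4.98 at week 4, and 5.81, 8.07 and 5.37 at week 12. Groups overlapped at every week. Blk, a B cell Src family kinase, and the adaptors Blnk and Bank1 had ranges of 3.15, 2.84 and 4.25.

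Ms4a1 encodes CD20, the surface protein found on B cells until they become plasma cells. Its sham levels on the log2 scale were 6.81, 5.52 and 9.40 at week 1, 4.23, 8.72, 4.10 and 9.28 at week 4, and 3.55, 7.10 and 7.74 at week 12. The gamma values were 5.97, 5.01 and 7.67 at week 1, 8.79, 5.83 and 8.27 at week 4, and 7.86, 4.17 and 4.49 at week 12. Sham and gamma overlapped at each week. The 30 cGy Si values were 3.99, 5.47 and 4.98 at week 1, 3.53, 4.08 and 7.83 at week 4, and 5.53, 4.11 and 5.56 at week 12. The 10 cGy Si values were 8.91, 4.66 and 8.47 at week 1, 4.43, 8.66 and 4.03 at week 4, and 4.64, 7.18 and 3.99 at week 12. At week 1 all 3 arrays of 30 cGy Si lay below all 3 sham arrays, with 5.47 as the highest of the former and 5.52 as the lowest of the latter, and the other irradiated groups overlapped sham.

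Cd37, a tetraspanin most abundant on B cells, had sham levels of 8.40, 7.05 and 10.23 at week 1, 6.60, 8.83, 7.19 and 9.04 at week 4, and 6.53, 7.92 and 7.88 at week 12. After gamma Cd37 was 8.17, 8.07 and 8.66 at week 1, 8.73, 7.25 and 8.76 at week 4, and 8.12, 7.05 and 6.83 at week 12. It overlapped sham at each week. After 30 cGy Si Cd37 was 7.80, 7.64 and 7.81 at week 1, 7.04, 6.95 and 8.49 at week 4, and 7.36, 6.76 and 6.69 at week 12. After 10 cGy Si Cd37 was 9.59, 7.31 and 9.29 at week 1, 7.54, 8.67 and 7.24 at week 4, and 6.70, 7.99 and 7.34 at week 12. The Si groups overlapped sham as well, and Cd37 followed the other B genes least (r = 0.91). Cd22, an inhibitory receptor of B cells, followed them most closely (r = 0.990).

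The remaining B genes shared these arrays. Cd72 and Btla, inhibitory surface receptors, ranged over 4.48 and 3.99. The transcription factors Pax5, which sets B cell identity, and Spib, and the Oct cofactor gene Pou2af1 ranged over 4.71, 4.91 and 4.22. Cxcr5, the receptor that leads B cells into follicles, ranged over 3.71, Ccr6, another chemokine receptor, over 3.06, and Fcrla, an Fc receptor-like protein of B cells, over 4.14. All 16 B genes had their highest value in sham week 1 replicate 3. The T genes had theirs in that array or in gamma week 4 replicate 3.

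**Figure D1:**
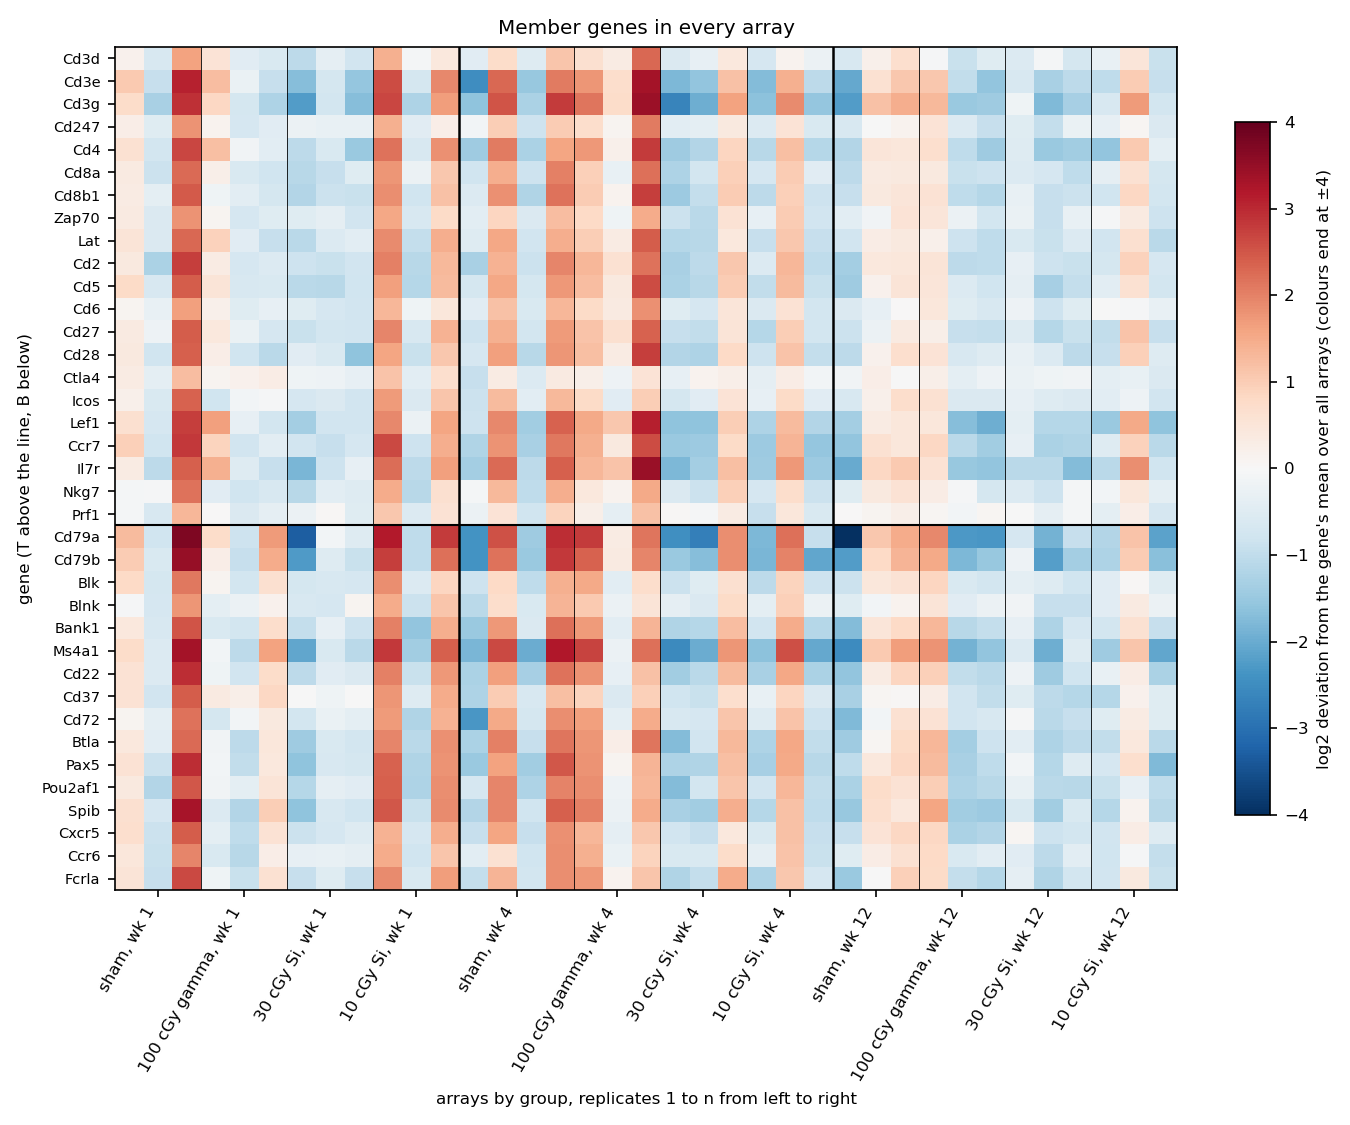
Colour shows the log2 deviation of each of the 37 members (rows, T above the line and B below) from its own mean over all arrays, in each of the 37 arrays (columns, by week and group). Whole columns are red or blue together, as in sham week 1 replicate 3, where all 16 B genes had their highest value.

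Averaged over members, the deviation from each gene's mean gave a T score and a B score per array. The T score ran from −1.10 to 2.28 and the B score from −1.55 to 2.65. The widest gap between neighbouring T scores, from −0.42 to 0.29, left 21 arrays below and 16 above. This gap was sought after the scores had been seen, and no test or average was made between its sides. Above it lay 6 of 10 sham arrays, 5 of 9 gamma arrays, 1 of 9 arrays of 30 cGy Si and 4 of 9 of 10 cGy Si. By week the arrays above it were 5 of 12 at week 1, 7 of 13 at week 4 and 4 of 12 at week 12. Of the 12 groups, 9 had arrays on both sides, 30 cGy Si at weeks 1 and 12 lay wholly below, and gamma at week 4 lay wholly above.

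**Figure D2:**
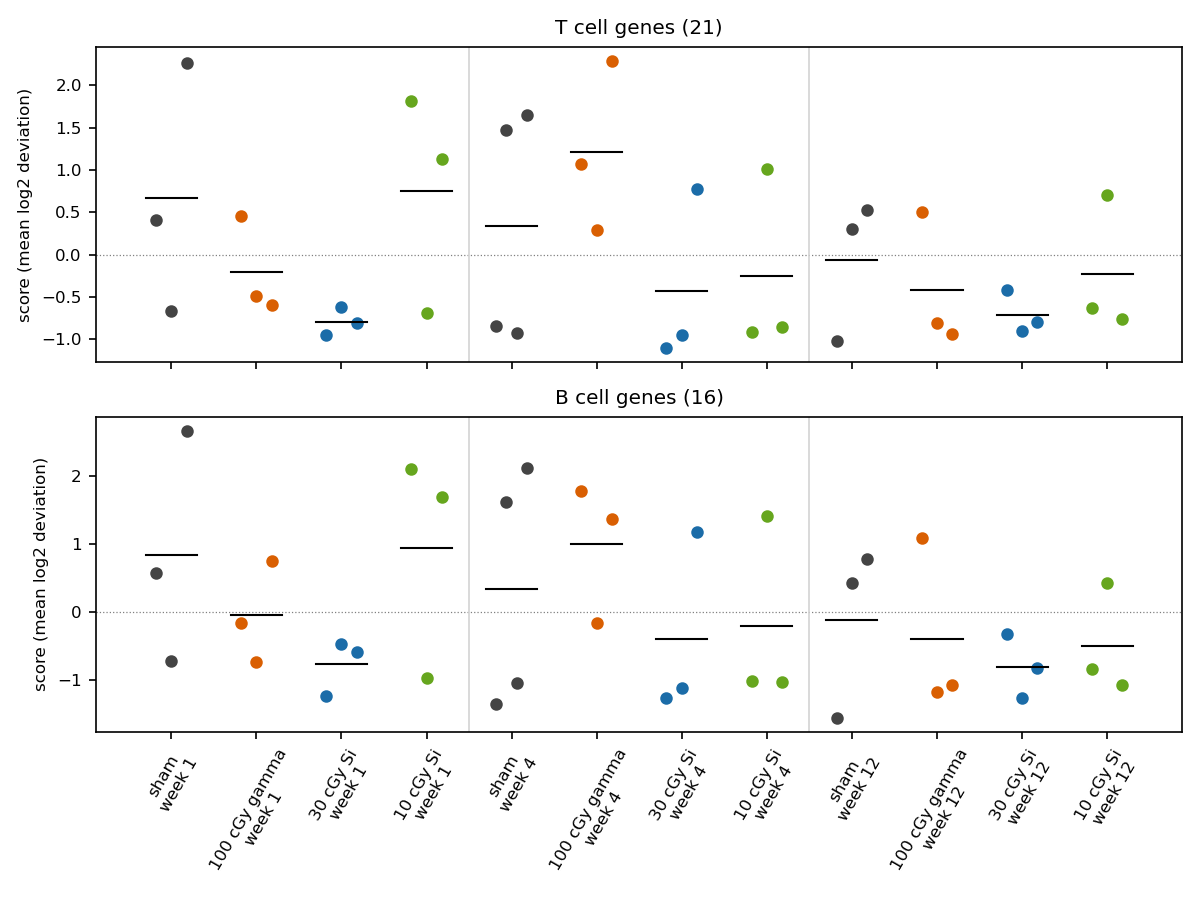
Points are the T score (upper panel) and B score (lower panel) of each array, in mean log2 deviation, by treatment and week, and bars are group means over 3 arrays (4 for sham at week 4). Arrays of one group lie far apart, as in sham at week 1 with T scores from −0.66 to 2.26, while all arrays of 30 cGy Si at weeks 1 and 12 are below 0.

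Over the 3 weeks the T score averaged 0.32 ± 1.18 (SD, n = 10) in sham, 0.20 ± 1.04 (n = 9) after gamma, −0.64 ± 0.57 (n = 9) after 30 cGy Si and 0.090 ± 1.06 (n = 9) after 10 cGy Si. The B score averaged 0.35 ± 1.48, 0.19 ± 1.09, −0.66 ± 0.78 and 0.079 ± 1.33 in the same order. The lymph node stroma list, 6 measured genes of stromal cells and high endothelial venules (Madcam1, Chst4, Ccl19, Cxcl13, Coch and Glycam1), averaged 0.51 ± 1.26, −0.0019 ± 0.99, −0.63 ± 0.71 and 0.063 ± 1.15. All 3 averages were lowest after 30 cGy Si, and the SDs overlap throughout.

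The spread between arrays of one group was far above that of most genes. The residual SD, the spread left within the 12 groups, had a median of 1.01 over the T genes (0.44 to 1.77) and 1.27 over the B genes (0.78 to 2.16), against 0.20 over all 13174 genes tested. The member with the smallest residual SD, Ctla4, still exceeded 94.2% of genes. The range over all arrays had a median of 3.57 for T genes and 4.23 for B genes, against 0.96 for all genes. With this spread, the 95% interval of a difference between groups at weeks 1 and 12 reached a median of 1.58 either side for T genes and 2.0 for B genes, and 0.90 and 1.13 for a treatment averaged over the 3 weeks.

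**Figure D3:**
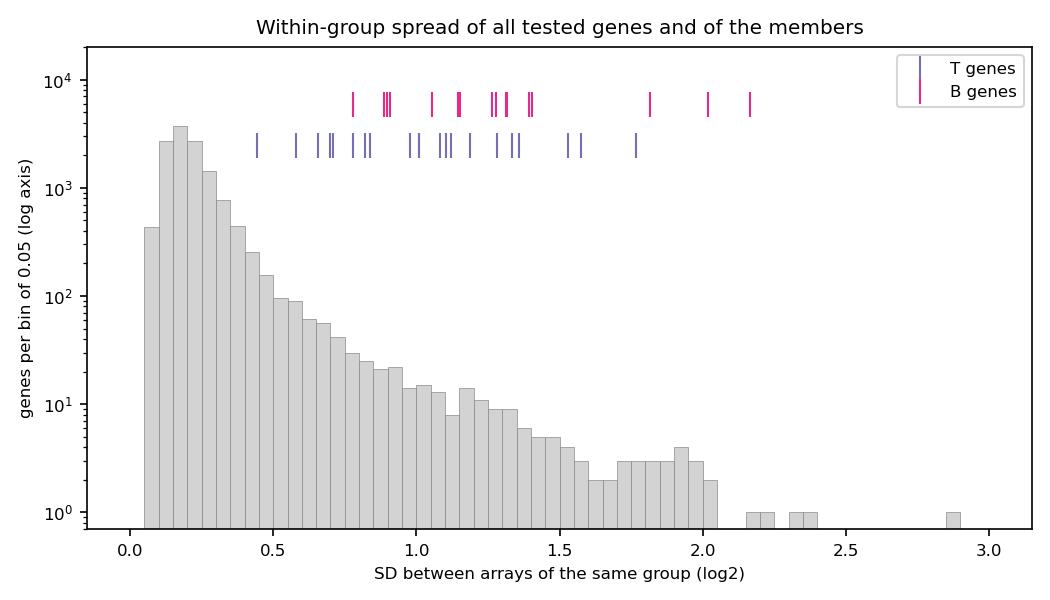
Grey bars count the 13174 genes tested by their SD between arrays of the same group (log2, bins of 0.05, log vertical axis), and the ticks mark the members at heights chosen for legibility. The T genes lie between 0.44 and 1.77 and the B genes between 0.78 and 2.16, in the right tail of all genes.

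In limma's test of any difference among the 12 groups, 0 of 37 members were called at an adjusted p under 0.05, against 15.8% of all genes tested, and 0 of 37 had an unadjusted p under 0.05, against 29.1%. The smallest p among T genes was that of Cd27 (limma, adjusted p = 0.247) and among B genes that of Cd37 (limma, adjusted p = 0.482). Whether the effect of irradiation differed between weeks was tested in the same fit, and 0 of 37 members were called, against 0% of all genes, with 0 members and 3.96% of genes at an unadjusted p under 0.05. With array weights, which count poorly fitting arrays less, the test of any difference called 10 T genes and 1 B gene, while it called 4827 genes in all in place of 2086. Unadjusted, 19 T and 8 B genes then had a p under 0.05 in that test, against 49.7% of all genes, and 3 T genes and 0 B genes in the test of differences between weeks, against 11.2%.

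The first irradiation comparison was 100 cGy gamma against sham. At week 1 the T genes averaged −0.88 and the B genes −0.88 on the log2 scale, with 0 of 21 and 0 of 16 above 0, against 51.9% of all genes. Here and below, members rose and fell together over the arrays, so counts of members are not counts of independent observations. Nkg7, a cytotoxic granule gene, had the smallest p of T genes and was the 1 member whose 3 gamma arrays all lay below the 3 sham arrays, against 5.52% of all genes, with a difference of −1.31 ± 0.64 (limma, adjusted p = 0.644). Among B genes Ccr6 differed by −0.98 ± 0.68 (adjusted p = 0.782) and Spib by −1.33 ± 1.08 (adjusted p = 0.810). The limma fit called 0 members, against 0.0228% of all genes, and 0 members had an unadjusted p under 0.05, against 7.82%. Without sham replicate 3 the averages were −0.081 for T and 0.028 for B, and without sham replicate 2 they were −1.54 and −1.66.

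At week 4 after gamma the averages had the opposite sign, 0.87 for T genes and 0.66 for B genes, with 21 of 21 and 16 of 16 above 0, against 58.0% of all genes. Cd3e, the epsilon chain, had the largest difference of all genes tested, 1.85 ± 1.13 (limma, adjusted p = 0.798, 95% interval −0.47 to 4.16). Cd79a differed by 1.34 ± 1.55 (adjusted p = 0.853), Cd3d by 0.86 ± 0.50 and Cd72 by 0.83 ± 0.83. The fit called 0 members and 0% of all genes, with 0 members and 5.56% of genes at an unadjusted p under 0.05. Without sham replicate 1 the averages were 0.48 and 0.098, and over all single arrays left out the T average ran from 0.34 to 1.33 and the B average from 0.098 to 1.25. With array weights the averages were 0.42 and 0.29.

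At week 12 after gamma the T genes averaged −0.35 and the B genes −0.28, with 1 of 21 and 2 of 16 above 0, against 52.2% of all genes. Lef1, the naive T cell factor, differed by −0.87 ± 1.04 and Cd3d by −0.54 ± 0.54, and Cxcr5, the follicle homing receptor, by −0.70 ± 0.81 (limma, adjusted p = 1.00 for each). Over the 3 weeks together the averages were −0.12 and −0.17, with 5 of 21 T and 2 of 16 B genes above 0, against 57.0%. Nkg7 differed by −0.45 ± 0.36 (adjusted p = 0.974) and Cxcr5 by −0.47 ± 0.46 (adjusted p = 0.983). In both comparisons limma called 0 members and 0% of all genes, and 0 members had an unadjusted p under 0.05, against 2.82% of genes at week 12 and 5.36% over 3 weeks. Without sham week 1 replicate 3 the averages over 3 weeks were 0.15 and 0.14, and at week 12 the T average ran from −0.83 to −0.056 and the B average from −1.01 to 0.17 over single arrays left out.

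With 30 cGy Si, the averages of the lymphocyte genes lay below sham at all 3 weeks. Week 1 had the largest differences, averaging −1.46 for T genes and −1.60 for B genes, with 0 of 21 and 0 of 16 above 0, against 55.2% of all genes. Cd3e differed by −2.38 ± 1.21 (limma, adjusted p = 0.433), Cd5 by −1.83 ± 0.83 (adjusted p = 0.391), Cd79a by −2.70 ± 1.66 (adjusted p = 0.501) and Blk by −1.40 ± 0.70 (adjusted p = 0.421). All 3 irradiated arrays lay below all 3 sham arrays for 8 members, Cd8b1, Cd5, Cd6, Cd27, Lef1, Nkg7, Ms4a1 and Btla, against 6.13% of all genes. The fit called 0 members, against 0.0228% of genes. At an unadjusted p under 0.05 there were 6 T genes and 0 B genes, all lower, against 12.0% of all genes in either direction and 3.54% lower.

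That week 1 result rested in part on sham replicate 3, without which the averages were −0.66 for T and −0.69 for B and 0 T genes had an unadjusted p under 0.05, as also without 30 cGy Si replicate 3. Without sham replicate 2, an array with low values, 19 T and 11 B genes did, and 0 were called. That count was 3 T and 1 B genes with array weights, against 22.1% of all genes, and 8 T and 3 B genes with the compared groups fitted alone, against 12.7%. Of the 6 measured lymph node stroma genes 3 passed the filter, and limma called 0 of the 3 in this comparison, with a smallest adjusted p of 0.389. Glycam1, a ligand made by high endothelial venules and also a milk protein gene, differed by −4.94, the lowest difference of all genes tested. Their level averaged 0.88 above the mean in sham at week 1 (−0.29 to 2.17) and −0.85 after 30 cGy Si (−1.10 to −0.45). With that level as a covariate the averages became −0.0014 for T and 0.36 for B.

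At week 4 after 30 cGy Si the T genes averaged −0.76 and the B genes −0.74, with 2 of 21 and 0 of 16 above 0, against 56.7% of all genes. Cd3g differed by −1.61 ± 1.27 (limma, adjusted p = 0.749), Lat by −1.04 ± 0.72 (adjusted p = 0.714), Cd79a by −1.54 ± 1.55 (adjusted p = 0.806) and Cxcr5 by −0.82 ± 0.76 (adjusted p = 0.784). At week 12 the averages were −0.64 and −0.69, with 0 of 21 and 0 of 16 above 0, against 51.5%. Il7r differed by −1.26 ± 1.17, Cd4 by −1.06 ± 0.98, Cd79b by −1.22 ± 1.39 and Ccr6 by −0.79 ± 0.68, with adjusted p from 0.953 to 0.961 in limma. In both weeks 0 members and 0% of all genes were called, and 0 members had an unadjusted p under 0.05, against 8.08% of genes at week 4 and 5.28% at week 12. With array weights the week 4 comparison instead had 17 T and 12 B genes at that level, against 15.5% of all genes, with averages of −1.56 and −1.77 and 0 members called. At week 12 Ctla4 and Prf1 were the 2 members without overlap, both lower, against 3.39% of all genes. The gap was very small, with highest irradiated and lowest sham values of 3.9053 and 3.9053 for Ctla4 and 4.21 and 4.23 for Prf1. Both genes lay near the filter on low values (4.04). Without sham week 4 replicate 1 the week 4 averages were −1.16 and −1.30, without sham week 4 replicate 4 −0.33 and −0.14, and without 30 cGy Si week 4 replicate 3 −1.37 and −1.53. At week 12 they were −1.12 and −1.41 without sham replicate 1 and −0.35 and −0.24 without sham replicate 3, the ends of their range over single arrays left out.

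Averaged over the 3 weeks, 30 cGy Si against sham (9 arrays against 10) gave −0.96 for T genes and −1.01 for B genes, with medians of −1.02 and −0.99 against 0.027 over all genes tested. Of the 37 members 0 lay above 0, against 58.4% of all genes. The median r of a member with the rest of its list was 0.97 for T and for B genes. The members thus largely repeat one pattern over the arrays, and their number adds little to the number of arrays. Cd27, a costimulatory receptor, had the smallest p, with a difference of −1.03 ± 0.42 (limma, adjusted p = 0.272, 95% interval −1.90 to −0.16). Cd3g differed most among T genes, by −1.73 ± 0.77 (adjusted p = 0.304), and Ms4a1 most among B genes, by −1.64 ± 0.87 (adjusted p = 0.373). Spib, with the smallest p of B genes, differed by −1.29 ± 0.61 (adjusted p = 0.324). Closest to 0 of all members were Ctla4, −0.21 ± 0.19, and Prf1, −0.23 ± 0.25.

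The limma fit called 0 members in that comparison, against 0.0304% of all genes. At an unadjusted p under 0.05 there were 15 of 21 T genes and 2 of 16 B genes, Spib and Cxcr5, all lower, against 14.7% of all genes in either direction and 4.51% lower. Those counts moved with single sham arrays, to 0 T genes without sham week 1 replicate 3 and to 19 T and 13 B genes without sham week 1 replicate 2. With array weights they were 19 T and 14 B genes, against 22.7% of all genes. The averages without sham week 1 replicate 3 were −0.69 for T and −0.70 for B, and no single array left out turned their sign. Without both arrays least like the rest they were −0.82 and −0.89, with 6 T and 0 B genes at an unadjusted p under 0.05. With the lymph node stroma level as a covariate they were 0.021 and 0.30, and, as at week 1, this covariate shares most of its spread with the scores.

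**Figure D4:**
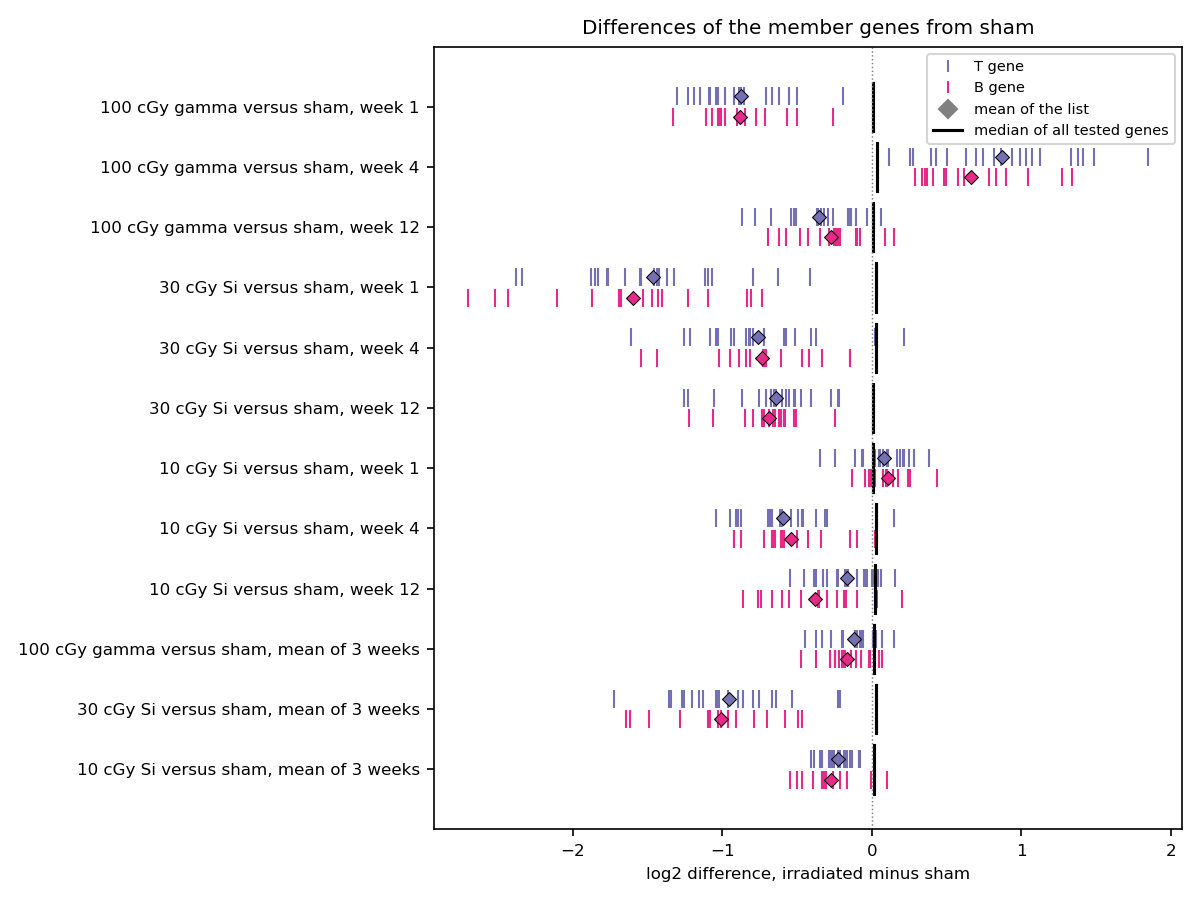
Ticks are the log2 differences of single T and B genes between an irradiated group and sham, diamonds the means of the 21 T and 16 B genes, and black lines the median of all 13174 genes tested. The averages lie farthest below 0 for 30 cGy Si at week 1 (−1.46 and −1.60) and above 0 for gamma at week 4 (0.87 and 0.66), and 0 members were called in any of the comparisons shown.

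With 10 cGy Si the averages against sham were 0.080 for T and 0.11 for B genes at week 1, −0.59 and −0.54 at week 4, and −0.16 and −0.38 at week 12. Of the 21 T genes 16, 1 and 5 lay above 0 at the 3 weeks, and of the 16 B genes 12, 1 and 2, against 52.2%, 56.8% and 55.1% of all genes. At week 1 Il7r differed by 0.38 ± 1.17, Nkg7 by −0.34 ± 0.64 and Pou2af1 by 0.44 ± 0.97 (limma, adjusted p = 0.999 for each). At week 4 Cd3g differed by −1.04 ± 1.27, Cd6 by −0.60 ± 0.47, Cd79b by −0.92 ± 1.30 and Spib by −0.92 ± 1.01 (limma, adjusted p = 1.00 for each).

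At week 12 after 10 cGy Si, Ctla4 was the 1 member without overlap, lower in all 3 irradiated arrays, against 3.71% of all genes, and differed by −0.45 ± 0.34. Icos, the inducible costimulator, differed by −0.55 ± 0.63, Ms4a1 by −0.86 ± 1.55 and Ccr6 by −0.74 ± 0.68 (limma, adjusted p = 1.00 for each of these). Over the 3 weeks the averages were −0.23 and −0.27, with 0 of 21 T and 2 of 16 B genes above 0, against 56.3%, and the named genes were Nkg7 at −0.41 ± 0.36, Ms4a1 at −0.54 ± 0.87 and Ccr6 at −0.33 ± 0.38. In each of these 4 comparisons limma called 0 members and 0 had an unadjusted p under 0.05, against calls for 0.0835% of genes at week 1 and 0% in the others, and an unadjusted p under 0.05 for 5.40%, 3.17% and 4.70% of genes at the 3 weeks and 6.71% over them. Leaving out sham week 1 replicate 2 turned the week 1 averages to −0.59 and −0.67, and leaving out sham week 1 replicate 3 moved them to 0.88 and 1.02, and the averages over 3 weeks to 0.039 and 0.030. Over single arrays left out, the week 4 averages ran from −1.23 to −0.16 for T and from −1.35 to 0.050 for B genes, the upper ends without sham replicate 4 and the lower without 10 cGy Si replicate 2. The week 12 averages ran from −0.64 to 0.13 and from −1.10 to 0.066, the upper ends without sham replicate 3 and the lower without sham replicate 1, so the B average at week 4 and both averages at week 12 turned. With array weights 11 T and 3 B genes had an unadjusted p under 0.05 at week 4, against 8.08% of all genes, with averages of −1.34 and −1.50, and the week 1 averages were 0.56 and 0.74.

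The comparisons with sham share the sham arrays of each week, so their values stand side by side and no overlap between them is given. The irradiated groups were also compared with each other over the 3 weeks. Against 100 cGy gamma, 30 cGy Si averaged −0.84 for T genes and −0.84 for B genes, with 0 of 21 and 0 of 16 above 0, against 52.4% of all genes. Cd4 differed by −1.32 ± 0.57 (limma, adjusted p = 0.322), Cd3g by −1.61 ± 0.78 (adjusted p = 0.368), Cd79a by −1.66 ± 0.96 (adjusted p = 0.446) and Btla by −1.02 ± 0.57 (adjusted p = 0.429). The fit called 0 members, against 0.00759% of all genes, and 6 T genes and 0 B genes had an unadjusted p under 0.05, all lower, against 13.5% of genes in either direction and 5.37% lower. That count was 0 T genes in 5 of 18 fits with a single array left out (gamma week 1 replicate 1, week 4 replicate 3 or week 12 replicate 1, or 30 cGy Si week 4 replicate 1 or 2) and 14 without 30 cGy Si week 4 replicate 3. With array weights 16 T and 11 B genes had such a p, against 21.3% of all genes, and 15 T and 6 B genes did with the compared groups fitted alone, against 18.2%.

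Against 10 cGy Si, 30 cGy Si averaged −0.73 and −0.73, with 1 of 21 T and 0 of 16 B genes above 0, against 52.8% of all genes. Cd8a differed by −0.87 ± 0.45 (limma, adjusted p = 0.782) and Cd3g by −1.45 ± 0.78, Blnk by −0.57 ± 0.35 and Cd79a by −1.45 ± 0.96. The fit called 0 members, against 0.0228% of genes, with 0 members and 6.51% of genes at an unadjusted p under 0.05, and 15 T and 2 B genes at that level without 10 cGy Si week 1 replicate 2. With array weights 16 T and 6 B genes were at that level, against 14.8% of all genes, and 5 T and 0 B genes with the compared groups fitted alone, against 10.4%. The B average was −0.46 without 10 cGy Si week 4 replicate 2. Of the 9 arrays a side, the T scores ran from −1.10 to 0.78 after 30 cGy Si and from −0.91 to 1.81 after 10 cGy Si, so the doses overlapped.

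Between weeks, all 4 treatments were averaged. From week 1 to week 4 the averages were 0.11 for T and −0.062 for B genes, with 17 of 21 and 8 of 16 above 0, against 49.3% of all genes. Cd37 differed by −0.47 ± 0.34 (limma, adjusted p = 0.338), Ctla4 by −0.21 ± 0.17 and Cd3g by 0.35 ± 0.67. The fit called 0 of 37 members, against 25.8% of all genes, and 0 members had an unadjusted p under 0.05, against 36.4%. Both averages turned with single arrays left out, the T average running from −0.067 to 0.31 and the B average from −0.30 to 0.17, in each case from without 10 cGy Si week 1 replicate 2 to without sham week 1 replicate 3. With the lymph node stroma level as a covariate limma called Cd37, at −0.47 (adjusted p = 0.00607). That level had an r of 0.97 with the B score over 37 arrays, so the covariate takes out most of what B genes share.

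From week 4 to week 12 the averages were −0.57 and −0.63, with 0 of 21 and 0 of 16 above 0, against 46.0% of all genes. Lef1 differed by −1.0 ± 0.51 (limma, adjusted p = 0.340), Cd79a by −1.06 ± 0.82 (adjusted p = 0.538), Cd37 by −0.61 ± 0.34 and Cd247 by −0.55 ± 0.27. The fit called 0 members, against 1.64% of all genes. Cd247 was the 1 member at an unadjusted p under 0.05, against 15.9% of genes in either direction and 9.10% lower, and the count was 0 T genes in 12 of 25 fits with a single array left out. With array weights 13 T and 9 B genes had such a p, against 21.4% of all genes, and 0 members were called. T scores ran from −1.10 to 2.28 at week 4 and from −1.02 to 0.71 at week 12.

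T and B genes varied together from array to array. As a description, between Cd3e and Cd79b Pearson's r was 0.58 and Spearman's rho 0.71 over the 21 arrays below the gap in the T score, and 0.78 and 0.80 over the 16 above it. The pair and the split were chosen after the data had been seen, Cd3e is part of the score that was split, and differences between the 12 groups were not taken out, so no p is given. Without the 2 arrays farthest from the median of Cd3e, r was 0.48 and 0.84. Across all members, r with the rest of the own list ran from 0.79 to 0.98 for T genes and from 0.91 to 0.99 for B genes.

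Some arrays departed from this balance. Gamma week 1 replicate 3 had a T score of −0.60 and a B score of 0.76, the largest excess of B over T (1.35). Gamma week 4 replicate 3 had a T score of 2.28 and a B score of 1.37, the largest excess of T over B. The longer lists of other T and B genes, which share no gene with the members, gave 0.70 for the first array, the highest of 37, and −0.42 for the second, where the lowest was −0.43 in 10 cGy Si week 12 replicate 3. These arrays were picked for their values, and no test was made.

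**Figure D5:**
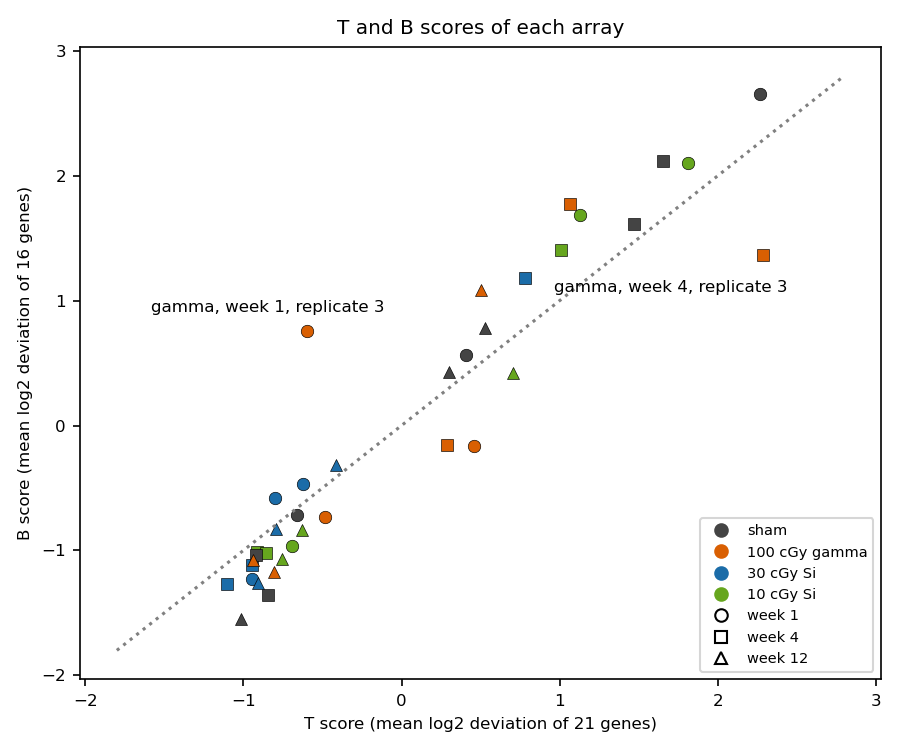
Each point is an array, with its T score on the horizontal and its B score on the vertical axis (mean log2 deviation of 21 and 16 genes), coloured by treatment and shaped by week, with the line of equal scores dotted. Most arrays follow the line, and gamma week 1 replicate 3 lies above it and gamma week 4 replicate 3 below it.

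Most genes of the lists of other T, NK and B cell genes, which are no members, followed the scores, and some did not. Of 27 measured genes of T and NK cells, 17 had an r of at least 0.8 with the T score over 37 arrays and 8 an r under 0.5, with a median of 0.89. Of 22 other B cell genes, 18 had an r of at least 0.8 with the B score and 3 an r under 0.5, with a median of 0.89. Of the first list 20 passed the filter, and of the second 21. For 30 cGy Si over 3 weeks, 2 of 20 and 2 of 21 lay above 0, 0 were called in limma, and the averages were −0.61 and −0.68. Prkcq, a kinase of T cell receptor signalling, differed by −1.24 ± 0.48 (adjusted p = 0.246) and the chemokine gene Ccl5 by −1.15 ± 0.51 (adjusted p = 0.305) in the limma fit. Fcer2a, the low affinity IgE receptor CD23, differed by −1.56 ± 0.81 (adjusted p = 0.362) and Fcmr, the Fc receptor for IgM, by −1.50 ± 0.71 (adjusted p = 0.324). At week 1 of that dose 0 of 20 and 2 of 21 lay above 0, with Grap2 at −1.81 ± 0.94 (adjusted p = 0.445) and Cr2 at −2.15 ± 1.40 (adjusted p = 0.525) in limma. Gamma at week 4 had 19 of 20 other T genes and 17 of 21 other B genes above 0, led by Themis at 1.15 ± 0.93 (adjusted p = 0.808) and Rasgrp1 at 1.02 ± 0.78 (adjusted p = 0.804), both of T cell receptor signalling, and by Fcer2a at 1.33 ± 1.34 (adjusted p = 0.832) and Traf3ip3 at 0.94 ± 0.86 (adjusted p = 0.817) in the limma fit. Traf3ip3, of the list of other B genes, had an r of 0.98 with the T score and 0.96 with the B score over 37 arrays. At week 1 of gamma 0 and 2 lay above 0, with Ccl5 at −1.64, Bcl11b at −0.95, Fcer2a at −1.44 and H2-Ob at −1.28. At week 12 of gamma 3 and 5 did, with Ccl5 at −0.57, Sh2d2a at −0.45, Irf4 at −0.76 and Tnfrsf13c at −0.64. Most genes of both lists lay above sham at week 4 and below it at weeks 1 and 12. Over 3 weeks of gamma 6 and 3 lay above 0, with Ccl5 at −0.69, Sh2d2a at −0.35, Irf4 at −0.47 and H2-Ob at −0.39.

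For 30 cGy Si, 4 other T and 0 other B genes lay above 0 at week 4 (Prkcq −1.38, Grap2 −1.17, Fcmr −1.40, Cr2 −1.32), and 3 and 1 at week 12 (Ccl5 −0.90, Rasgrp1 −0.82, Fcer2a −1.10, Fcmr −1.02). For 10 cGy Si, 14 and 10 lay above 0 at week 1, where the largest differences were those of Gata3 (−0.70), Skap1 (0.29), Bcl6 (0.84) and Bcl11a (−0.46). Both signs occurred in both lists. At week 4 of that dose 3 and 2 did (Sit1 −0.83, Grap2 −0.81, Ikzf3 −1.17, Fcer2a −1.15), at week 12 6 and 3 (Ccl5 −0.83, Thy1 0.42, Fcer2a −1.17, Irf4 −0.97), and over 3 weeks 3 and 3 (Sit1 −0.37, Ccl5 −0.34, Fcer2a −0.85, Cr2 −0.51). Against gamma, 30 cGy Si had 2 and 2 above 0 (Prkcq −1.37, Grap2 −1.12, Fcer2a −1.32, Fcmr −1.32), and against 10 cGy Si 3 and 0 (Prkcq −1.17, Grap2 −0.89, Fcmr −1.04, Cr2 −0.89). In all these comparisons limma called 0 genes of both lists.

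From week 1 to week 4, 15 and 6 lay above 0 and 0 were called, with Klrd1 at 0.46, Ccl5 at 0.32, Bcl11a at 0.42 and Fcer2a at −0.38. From week 4 to week 12, 1 and 1 lay above 0 (Prkcq −0.86, Txk −0.79, Fcer2a −0.95, Fcmr −0.79). Limma called 1 gene of these lists, Bcl6, which fell (adjusted p = 0.0280), against 1.64% of all genes called in that comparison. Bcl6, a transcription factor of germinal centre B cells, had an r of only 0.30 with the B score. Its fall therefore does not stand for the B genes that followed that score.

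The 8 listed T and NK cell genes with an r under 0.5 with the T score were of several kinds. Gata3, also a factor of luminal epithelium, had an r of −0.17, Tbx21, a factor of Th1 and NK cells, 0.42, and Thy1, also found on stromal cells, 0.41. The other 5 had means below the filter, the granzyme genes Gzmb (0.26) and Gzmk (0.24), the NK receptor genes Klrb1c (0.24) and Ncr1 (0.47), and the chemokine gene Xcl1 (0.43). Of the B cell list, Ebf1, also a factor of fat and stroma, had an r of −0.096 with the B score, Irf4, a factor of activated B cells and plasma cells, 0.15, and Bcl6 0.30. These 3 had means of 9.75, 6.59 and 7.60, above the filter.

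The non-members most like the T score over 37 arrays, with Pearson r from 0.983 to 0.988, were Dnah8, Grap2, Themis, Rasgrp1, Dapl1, Stat4, Pglyrp2, Cd96, Traf3ip3 and Tspan32. Themis and Grap2 are known for T cell receptor signalling, and Dnah8 is a dynein heavy chain known from sperm. Those most like the B score, with r from 0.974 to 0.992, were Fcmr, Cr2, Ikzf3, H2-Ob, B3gnt5, Fcer2a, Treml2, Tnfrsf13c, Slamf6 and Stap1. Cr2 is complement receptor 2 of B cells and follicular dendritic cells, and Tnfrsf13c is the BAFF receptor. All 37 arrays share one normalization, and these values are descriptions.

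Lists of other cell types followed the scores to different degrees. The lymph node stroma list had an r of 0.91 with the T score and 0.97 with the B score over 37 arrays, 0.69 and 0.78 over the 21 arrays below the gap, and 0.67 and 0.92 over the 16 above it. Its mean level ran from 4.38 to 7.85, with Glycam1 from 3.83 to 12.2, Ccl19, a T zone chemokine, from 4.60 to 9.81, and Cxcl13, the follicle chemokine, from 7.26 to 10.8. For 5 dendritic cell genes r was 0.93 and 0.91, with the list's mean from 4.56 to 6.02. It was 0.44 and 0.47 over the arrays below the gap and 0.88 and 0.87 over those above it. Single genes ranged from Xcr1 (0.92 and 0.89) to Zbtb46 (0.38 and 0.42). For 5 plasma cell genes r was 0.46 and 0.52, from Mzb1 (0.76 and 0.85) to Sdc1 (−0.43 and −0.45). The lists of epithelium (−0.34 and −0.41), adipocytes (−0.19 and −0.084), macrophages (−0.15 and −0.14), endothelium (−0.034 and 0.093), neutrophils (0.026 and 0.085), fibroblasts (−0.28 and −0.30) and skeletal muscle (0.20 and 0.23) followed the scores less over 37 arrays. On one side of the gap some r lay further from 0. With the B score it was −0.64 for epithelium and −0.59 for fibroblasts above the gap, and 0.54 for endothelium below it. How much lymph node each sample held is not given in the labels, and its part in the differences between groups was not tested.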

How the data were processed

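The deposited values of 37 Affymetrix arrays were log2 expression values, which the authors had made with RMA in oligo (per the submitters' processing notes, versions not given in the sources used here). No further normalization was applied. Probe sets took their gene from GEO's platform annotation, and those with several symbols were left out. Differences are log2 differences ± SE from limma 3.58.1 (R 4.3.3), fitted to 12 group means over all arrays, with two-sided tests, moderated variances and Benjamini-Hochberg adjustment over 13174 genes. A gene was called at an adjusted p under 0.05. The number of arrays limits the precision. The fit was tested on simulated data with known changes.

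The members and the lists of other genes were chosen with earlier results of these data known. All members are described by role. For each comparison, called members would be named, and otherwise the T and the B gene with the smallest unadjusted p and those with the largest absolute difference. Values in every array were given for Cd3e, Cd3g, Cd8a, Ccr7, Il7r, Cd79a, Cd79b, Ms4a1 and Cd37. Likeness was Pearson's r over 37 arrays, 10 genes per score. Of the lists of other T and B genes, the 2 largest differences were named in each comparison.

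Alternatives tried were testing every gene, filtering at the 50th percentile, averaging probe sets per gene, quantile normalization, trended robust variances, array weights, a replicate block, fitting the compared groups alone, the lymph node stroma level as a covariate, list medians, and leaving out single arrays or both arrays least like the rest. Scores and figures used Python 3.11.15.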

Additional observations from a re-analysis of the deposited data

Results flagged for a closer look

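After 100 cGy gamma, 4 T genes had every irradiated array on one side of the sham mean at one week and every array on the other side at another. How many of all genes tested had this pattern was not counted. Members rose and fell together over the arrays, so the 4 genes are not independent observations. For each, the difference of that pair of weeks was not tested by itself, and limma's joint test of whether irradiation effects differ between weeks called 0 members. Cd2, an adhesion receptor, lay from −1.30 to −0.31 around its sham mean at week 1 and from 0.31 to 1.86 at week 4, a change of 1.99 between the weeks' means. For Cd27, a costimulatory receptor, the arrays lay from −1.53 to −0.44 and from 0.24 to 1.97, a change of 2.02. Ccr7, the lymph node homing receptor, lay from −1.74 to −0.087 and from 0.035 to 2.25, a change of 2.20. Cd3d, the CD3 delta chain, lay from 0.099 to 2.06 at week 4 and from −0.95 to −0.11 at week 12, a change of −1.40. In limma's test of differences between weeks the adjusted p of all 4 was 1.0. They came from 360 comparisons of a gene or score between weeks, in groups of 3 arrays against sham means of 3 or 4 arrays that themselves spread widely. The 3 gamma arrays of week 4 also had lymph node stroma levels from −0.44 to 1.40, against −0.44 to 0.20 at week 1, and the part of this in the values was not tested. In sham at week 4, the group with 4 arrays, 40 genes and scores were examined for an array far from the others, and 0 had one.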

How the results depend on the processing

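Precision was limited by the number of arrays and the spread between them. With single arrays left out, 0 members were called in every comparison. The count of called members was 0 throughout the main setting, so a count of 0 under 900 of 904 alternatives says little about stability. Counts at an unadjusted p under 0.05 did move, most with array weights, as for 30 cGy Si against sham at week 4 (17 T and 12 B genes in place of 0). Of 752 list averages 749 moved by less than the residual SD of the score, which is wide (1.0 for T, 1.27 for B) and does not show that they are stable. The exceptions were the test of any difference, with 10 T and 1 B genes called under array weights and 1 B gene under the lymph node stroma covariate, Cd37 from week 1 to week 4 under that covariate (−0.47, 1 B gene called), and the averages for 30 cGy Si under it, −0.0014 (T) and 0.36 (B) at week 1 and 0.30 (B) over 3 weeks. The filter at the 50th percentile kept 7 T and 7 B genes. Of 1244 values of named genes, 22 changed sign, over 17 of 57 results.

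The stroma covariate turned, for 30 cGy Si, Cd79a at week 1 (0.55), Cd79b at week 12 (0.33) and, over 3 weeks, Cd3g (0.030), Ms4a1 (0.43) and Spib (0.16). It turned, for 10 cGy Si, Ccr6 (0.019), Icos (0.15) and Ms4a1 (0.96) at week 12 and Ccr6 (0.017) and Ms4a1 (0.28) over 3 weeks. For gamma it turned Spib at week 1 (0.0089) and Cxcr5 at week 12 (0.019) and over 3 weeks (0.010), and, between weeks 4 and 12, Cd79a (0.025). For 10 cGy Si at week 1, Nkg7 was 0.33 with array weights and 0.40 without both arrays least like the rest. With single arrays left out, Nkg7 ran from −0.92 to 0.40, Il7r from −0.41 to 1.38 and Pou2af1 from −0.44 to 1.55. The stroma covariate had an r of 0.91 with the T score and 0.97 with the B score, so turns under it do not show what part lymph node had. The cause of the changes was not tested.

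The labels do not say whether replicate numbers pair the samples. Deviations of arrays with the same number and week had a median correlation of 0.021 (−0.46 to 0.65), with 21 of 54 pairs over 0.1. For different numbers of the same week the median was −0.014. With so few arrays per group these values do not settle whether some samples were paired. With the replicate number as a block, 0 members were called in any comparison. For 30 cGy Si over 3 weeks the block gave averages of −0.81 (T) and −0.81 (B), with 1 T gene and 0 B genes at an unadjusted p under 0.05. At week 4 it gave −0.33 and −0.14, the same as without sham week 4 replicate 4. That array is the only one numbered 4, so the block fits it by itself and takes it out of the averages at week 4 and over 3 weeks.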
